A study of Homo sapiens with 12 samples.

Results

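The 10 long noncoding RNAs known from cancer cells that were chosen by name are MALAT1, NEAT1, H19, PVT1, TUG1, GAS5, SNHG1, MIR22HG, MIR31HG and MIR205HG. Transcript rows paired with 7 of these 10 genes, and MALAT1, NEAT1 and MIR22HG were not analysed here. The 7 genes hold 105 transcript rows among the 39099 genes that could be summed, and all 7 passed the filter on low values that left 14767 genes for testing. They were read across 12 RNA-seq libraries of PANC-1 and AsPC-1, both established lines from human pancreatic cancers. Each line came as a mock control, with overexpression of TAp63, or with overexpression of deltaNp63, giving 6 groups of 2 libraries labelled as biological replicates. TAp63 carries the full transactivation domain of the transcription factor p63, and deltaNp63, which lacks it, starts from an internal promoter. The labels give neither the vector nor the time after its delivery, and each line is a single cell source.

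Long noncoding RNAs are transcripts that act without encoding a protein, and many of them are spliced and carry a poly(A) tail. Some serve mainly as carriers: the introns of GAS5 and SNHG1 hold small nucleolar RNAs (snoRNAs), which guide the chemical modification of ribosomal RNA and are released after splicing, while the leftover spliced RNA is often short-lived because nonsense-mediated decay, the pathway that removes RNAs with early stop codons, destroys it. Others hold a microRNA, a short RNA that silences messages through the seed at its 5′ end. H19 carries miR-675 and is silent on one parental chromosome, MIR31HG and MIR205HG carry miR-31 and miR-205, PVT1 lies beside MYC, and TUG1 is a widely expressed RNA of nucleus and cytoplasm. The p63 protein is known as a regulator of miR-205 in squamous epithelia.

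The microRNAs held by these hosts are shown first, because they are the reason H19, MIR31HG and MIR205HG are grouped together. PVT1 also spans microRNA genes on its strand, MIR1204, MIR1205, MIR1206, MIR1207 and MIR1208, which are not shown. Their mature sequences are from RefSeq (GRCh38.p14), written 5′ to 3′ with the seed, bases 2 to 8, in capitals. Both arms of miR-675 fall in exon 1 of isoform H19-203 on the minus strand of chromosome 11, miR-31-5p lies in intron 1 of MIR31HG-201 on the minus strand of chromosome 9, and miR-205-5p lies in intron 2 of MIR205HG-210 on the plus strand of chromosome 1.
hsa-miR-675-5p: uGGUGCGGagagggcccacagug
hsa-miR-675-3p: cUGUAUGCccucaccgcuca
hsa-miR-31-5p: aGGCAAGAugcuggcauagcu
hsa-miR-205-5p: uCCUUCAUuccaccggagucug
The 4 seeds differ from one another. One other microRNA of the RefSeq table shares the seed of miR-675-5p, and none shares the other 3. The libraries were made from poly(A) RNA, so the values below are of the host RNAs and not of the microRNAs.

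The second set of sequences marks some of the places where the main isoforms of the 2 snoRNA hosts part. They are from the GENCODE v44 transcripts (hg38), are read on the minus strand, and are written 5′ to 3′. In the GAS5 exon at chr1:173865471-173865547, the 39 capitals are kept in GAS5-221 and left out of GAS5-218. The SNHG1 exon at chr11:62854018-62854064 is whole in SNHG1-211 and absent from SNHG1-205. SNHG1-211 starts with the 22-base exon at chr11:62855865-62855886, and SNHG1-217 starts downstream with the exon at chr11:62855424-62855488, whose first 22 bases, in capitals, are absent from SNHG1-211.
GAS5-221 long exon: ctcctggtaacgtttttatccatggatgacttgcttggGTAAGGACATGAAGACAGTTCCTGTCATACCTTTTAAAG
SNHG1-211 exon absent from SNHG1-205: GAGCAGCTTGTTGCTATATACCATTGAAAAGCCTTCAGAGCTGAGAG
SNHG1-211 first exon: TCTCATTTTTCTACTGCTCGTG
SNHG1-217 first exon: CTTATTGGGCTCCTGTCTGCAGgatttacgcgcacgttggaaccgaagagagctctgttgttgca
GAS5-221 opens with C followed by further pyrimidines, a run of 6 in all, and SNHG1-211 opens with T in a run of 4. Hosts of snoRNAs often belong to the class of genes whose RNA starts with C in such a run, as those of ribosomal proteins do. SNHG1-211 as annotated does not start with that C.

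Values are TPM, relative abundances corrected for transcript length, summed over the rows of a gene. The read depth behind them is unknown, because TPM keeps no depth. A library held 12212 to 13161 genes at 1 TPM or more. TP63, summed over its isoforms, stood at 0.958 ± 0.199 TPM (SD, n = 2) in AsPC-1 mock, 136 ± 47.7 with TAp63 and 298 ± 74.4 with deltaNp63. In PANC-1 it stood at 0.0719 ± 0.067, 333 ± 13.03 and 1001 ± 263. The epithelial keratins KRT8, KRT18 and KRT19 lay between 707 and 3738 TPM in every library, while the acinar, endocrine and endothelial markers with rows all missed the filter, with AMY2A and INS at 0 in every library. Of 4 leukocyte markers, PTPRC and CD3E were near 0 and CD68 and CD79A passed the filter, both higher in PANC-1 mock, with CD68 at 120 ± 7.97 and 270 ± 21.2 TPM. CD68 also fell with deltaNp63 in AsPC-1 (-0.39, limma adjusted p = 0.0362). Of 4 fibroblast markers, COL1A1 stood at 0.264 ± 0.0413 TPM in AsPC-1 mock and 85.1 ± 1.36 in PANC-1 mock, and LUM at 204 ± 28.5 and 0.0261 ± 0.037. The part of these differences in the results was not tested. The lines differ in other cell type markers: the difference of PANC-1 mock from AsPC-1 mock was -4.77 for EPCAM and 4.47 for CDH2 on the log2(TPM + 1) scale, the scale of all log2 differences here. Of 6 epithelial markers, which also include KRT7 and CDH1, 5 were lower and 0 higher in PANC-1 mock (median difference -1.39). Of 4 mesenchymal markers, 3 were higher and 0 lower (median 0.79). Of all genes, 44.6% were higher and 27.9% lower. In such bulk RNA, fewer expressing cells and less RNA per cell cannot be told apart.

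Most of these RNAs stood at different levels in the 2 cell lines, and none passed the test with a construct. Between the mock groups of the lines, 6 of 7 genes differed at an adjusted p under 0.05 (limma, Benjamini-Hochberg over all genes tested), 4 higher and 2 lower in PANC-1. Of all genes tested, 72.5% differed in that comparison, 44.6% higher and 27.9% lower in PANC-1, so the members' share is close to the background. The libraries of the mock groups did not overlap for 6 of the 7, and for 87.6% of all genes. In the 8 comparisons that involve a construct, 0 of 56 gene-level tests passed in limma, and 5 had an unadjusted p under 0.05. Those 5 were 1 gene for TAp63 and 2 for deltaNp63 against mock and 2 between the constructs, all in AsPC-1, where 15.1%, 29.7% and 7.92% of all genes had one. The percentages of all genes that passed there were 0.637% for TAp63 and 7.14% for deltaNp63 against mock in AsPC-1, 0.00677% and 0.0406% for the same in PANC-1, 0.0203% and 0.0271% between the constructs (AsPC-1, then PANC-1), and 0.0745% and 0.582% for the cell-line differences in the TAp63 and the deltaNp63 effect. At these rates, a count of 0 among 7 genes is near the background. These p-values rest on the spread between 2 labelled replicates per group, pooled over the 6 groups.

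**Figure D1:**
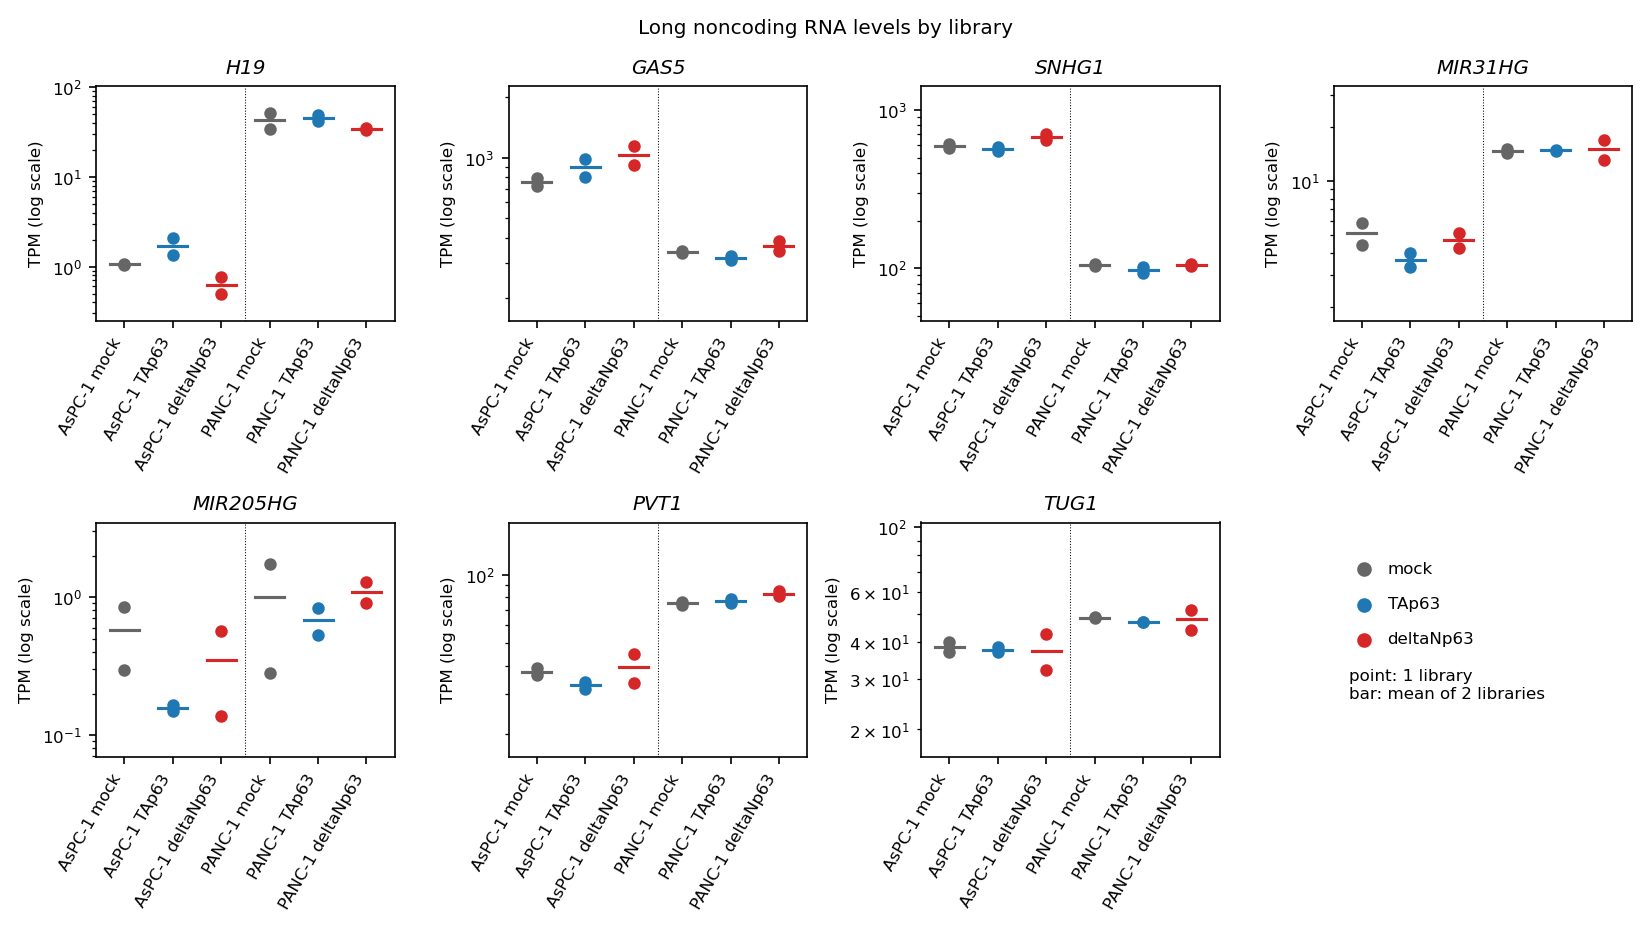
TPM on a log axis of the 7 genes in each of the 12 libraries, by cell line and construct; each point is 1 library and each bar the mean of 2. H19 sits between 0.498 and 2.07 TPM in AsPC-1 and between 33.4 and 51.4 in PANC-1, whereas GAS5 and SNHG1 are higher in every AsPC-1 library.

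H19 (ENSG00000130600, chr11:1995166-2004552, minus strand), an imprinted RNA abundant in fetal tissue, showed the largest difference between the lines. In AsPC-1 it was at 1.04 and 1.08 TPM in mock, 1.36 and 2.07 with TAp63, and 0.498 and 0.756 with deltaNp63. In PANC-1 it was at 51.4 and 34.4 in mock, 48.9 and 41.9 with TAp63, and 35.2 and 33.4 with deltaNp63. All 6 PANC-1 libraries were above all 6 AsPC-1 libraries, and within the AsPC-1 line the 3 groups did not overlap, with TAp63 highest and deltaNp63 lowest. PANC-1 mock averaged 40.4 times AsPC-1 mock in TPM. On the log2(TPM + 1) scale, which understates a fold for low genes, the difference was 4.39 (SE 0.19, limma adjusted p = 1.66e-08). Between TAp63 and deltaNp63 in AsPC-1 the difference was 0.73 (SE 0.19), with an unadjusted p of 0.00378 and a limma adjusted p of 0.628, and against mock the values were 0.38 for TAp63 and -0.35 for deltaNp63 (adjusted p = 0.387 and 0.265). In PANC-1 the TAp63 group was 0.10 and the deltaNp63 group -0.29 from mock, with overlapping libraries and an adjusted p of 1.0 each in limma.

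Most H19 RNA in PANC-1 was assigned to H19-203, the isoform with miR-675 in its first exon, at 28.5 ± 4.96 TPM (SD, n = 6 libraries over the 3 constructs). That isoform was listed at 0 in 4 of the 6 AsPC-1 libraries, at 0.00121 TPM in the second TAp63 library and at 0.149 TPM in the second deltaNp63 library. The low AsPC-1 sum was spread over isoforms under 1.10 TPM. In the mock comparison 5 of 6 tested H19 isoforms were higher in PANC-1 and 0 lower, against 44.7% of all 51675 transcript rows tested that differed in either direction. None of the 6 reached 1 TPM in 2 AsPC-1 libraries, so all were tested through PANC-1 and the filter partly set their direction. IGF2, the growth factor gene next to H19 that is expressed from the opposite parental chromosome, was also higher in PANC-1, going from 0.053 ± 0.000957 TPM in AsPC-1 mock to 9.85 ± 1.45 in PANC-1 mock (log2 difference 3.36, SE 0.14), whereas the ribosomal protein gene MRPL23 on its other side did not pass (0.32, limma adjusted p = 0.0502). In AsPC-1 mock IGF2 was under the filter's 1 TPM, and the PANC-1 mock libraries sufficed to pass it. The filter thus favoured a higher IGF2 value in PANC-1.

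GAS5 and SNHG1 were the most abundant of the 7 in AsPC-1 and were both lower in PANC-1. GAS5 (ENSG00000234741, chr1:173858559-173868882, minus strand), named for accumulating in growth-arrested cells, overlaps GAS5-AS1 on the other strand. The AsPC-1 mock libraries had 793 and 728 TPM, those with TAp63 989 and 807, and those with deltaNp63 1140 and 920. The PANC-1 values were 343 and 337 in mock, 326 and 308 with TAp63, and 385 and 344 with deltaNp63. Every AsPC-1 library was above every PANC-1 library, and in AsPC-1 all 4 libraries with a construct were above both mock libraries. AsPC-1 mock averaged 2.24 times PANC-1 mock (log2 difference -1.16 for PANC-1 against AsPC-1, SE 0.12, limma adjusted p = 1.13e-05).

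The GAS5 value with deltaNp63 in AsPC-1 had the lowest adjusted p of the 56 construct tests, at 0.0582 in limma. Its log2 difference from mock was 0.43 (SE 0.12, 95% interval 0.16 to 0.70), and the median of all genes in that comparison was -0.12, so that GAS5 stood 0.55 above the median gene. With TAp63 in AsPC-1 it was 0.23 above mock (adjusted p = 0.399), and in PANC-1 the values were -0.10 with TAp63 and 0.10 with deltaNp63. The difference between the lines in the deltaNp63 effect was -0.33 (SE 0.17) and missed the threshold in limma (adjusted p = 0.354), so a response of one line only was not shown. The call depended on single settings: without the second AsPC-1 deltaNp63 library, the lower of that pair, the log2 difference was 0.58 with an adjusted p of 0.00884, and with genes of a mean of at least 5 TPM only the adjusted p was 0.0378. With the replicate number as a block it was 0.0207.

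SNHG1 (ENSG00000255717, chr11:62851978-62855953, minus strand) hosts a cluster of snoRNAs that includes SNORD22 and SNORD25 to SNORD28. Mock AsPC-1 cells gave 608 and 573 TPM, TAp63 cells 585 and 550, and deltaNp63 cells 709 and 645. PANC-1 libraries read 103 and 106 in mock, 101 and 93.1 with TAp63, and 107 and 103 with deltaNp63. The lines did not overlap, and both AsPC-1 deltaNp63 libraries were above the other 4 of that line. PANC-1 mock was at 0.177 of AsPC-1 mock (log2 difference -2.49, SE 0.08, limma adjusted p = 1.18e-09). Against mock, deltaNp63 in AsPC-1 gave 0.20 (SE 0.08, adjusted p = 0.127), and TAp63 was 0.25 below deltaNp63 (adjusted p = 0.628). Without the second AsPC-1 deltaNp63 library the first of these was 0.26 with a limma adjusted p of 0.0443. SLC3A2, the amino acid transporter subunit gene beside SNHG1, fell in the same direction between the lines, from 727 ± 71.4 to 283 ± 51.5 TPM (log2 difference -1.37, SE 0.13).

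**Figure D2:**
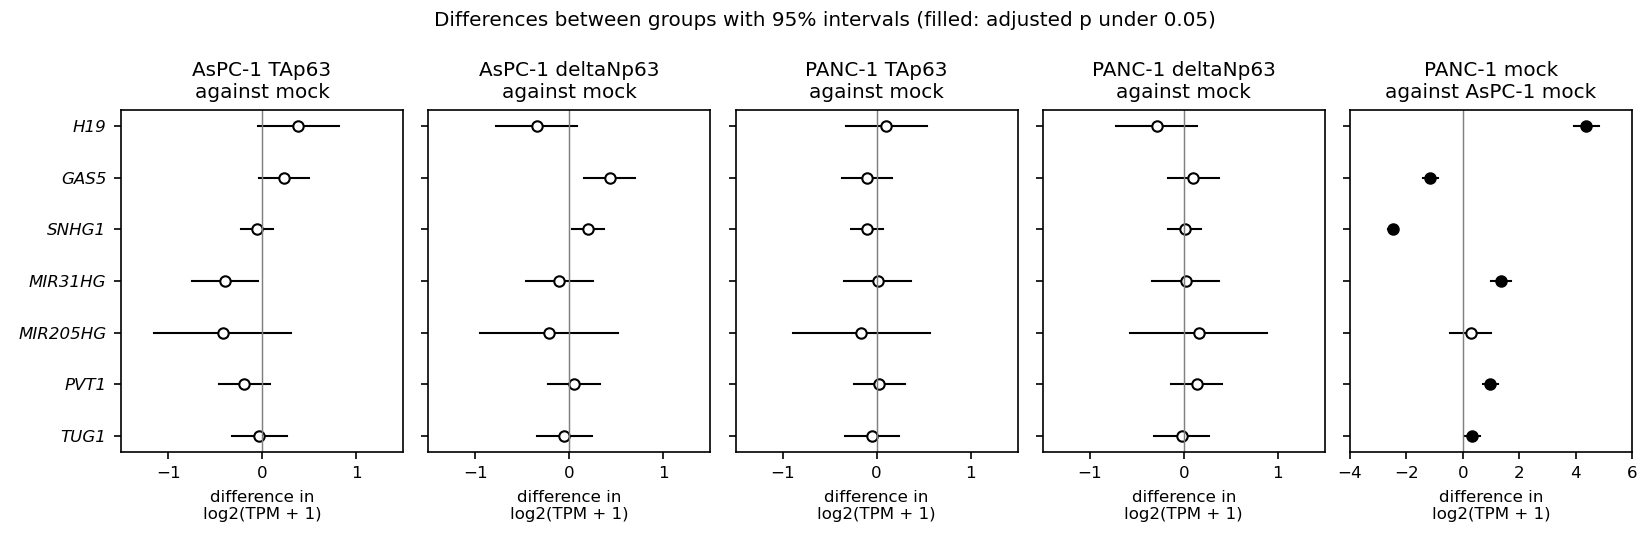
Differences in log2(TPM + 1) of the 7 genes for 4 comparisons with mock and for PANC-1 mock against AsPC-1 mock, with 95% intervals; filled points have an adjusted p under 0.05. The open points of the 4 construct panels all lie between -0.42 and 0.43, and the fifth panel has a wider axis.

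Isoform make-up also differed between the lines, in the 2 snoRNA hosts and in PVT1 and TUG1. Shares of the gene's TPM were compared over the 6 libraries of each line with a two-sided exact permutation test on 19 isoforms of GAS5, SNHG1, PVT1 and TUG1, and 8 of the 19 passed after Benjamini-Hochberg adjustment. The test was not run on other genes, so this count has no background beside it. At gene level, which is a different measure, 72.5% of all genes differed between the mock groups. Shares within a gene also depend on one another. The 6 libraries of a line share their cells and differ in construct, so the test sets 2 sets of libraries apart and says nothing on cell lines in general. GAS5-221 made up 65.8% ± 1.34 (SD, n = 6) of GAS5 in AsPC-1 and 47.0% ± 3.05 in PANC-1 (exact permutation, adjusted p = 0.00685). The shorter GAS5-218 held 24.7% ± 1.84 and 22.4% ± 1.53, which did not pass (exact permutation, adjusted p = 0.0748). Per library the TPM of GAS5-221 was 2.37 to 3.02 times that of GAS5-218 in AsPC-1 and 1.79 to 2.39 times in PANC-1, ranges that overlap.

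In SNHG1 the share of SNHG1-211 was 60.7% ± 1.44 in AsPC-1, against 39.6% ± 3.49 in PANC-1. The internally started SNHG1-217, which also lacks 219 bases of the last exon, held 17.9% ± 0.597 and 3.48% ± 1.10, and SNHG1-205 held 13.5% ± 1.61 and 8.77% ± 1.54. SNHG1-201, annotated as a retained-intron transcript, went the other way, from 0.926% ± 0.501 to 16.5% ± 3.62. All 4 SNHG1 shares had an adjusted p of 0.00685 (exact permutation over 6 against 6 libraries, raw p 0.00216, the smallest the design allows). The TPM of SNHG1-211 was 3.19 to 3.64 times that of SNHG1-217 in AsPC-1 and 8.92 to 20.5 times in PANC-1, whereas its ratio to SNHG1-205 differed by less than its spread, at 4.57 ± 0.671 and 4.64 ± 0.930. With the mock libraries left out, no share passed: 4 against 4 libraries cannot give a raw p below 0.0286, and the lowest adjusted p was 0.0603.

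**Figure D3:**
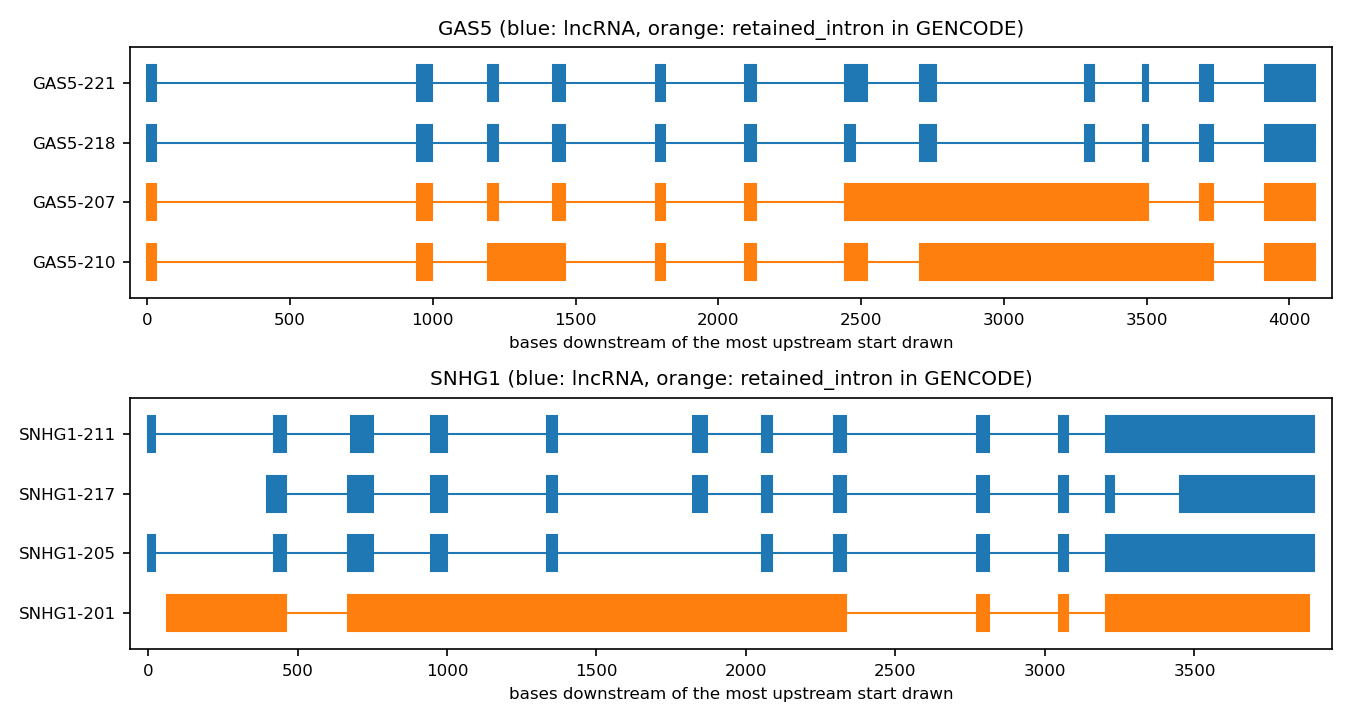
Exon maps of 4 GAS5 and 4 SNHG1 isoforms from GENCODE v44, drawn to scale in bases downstream of the most upstream start; boxes are exons and lines introns. GAS5-218 has a shorter seventh exon than GAS5-221, SNHG1-217 starts downstream of SNHG1-211, and the retained-intron isoforms (orange) keep introns as parts of long exons.

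**Figure D4:**
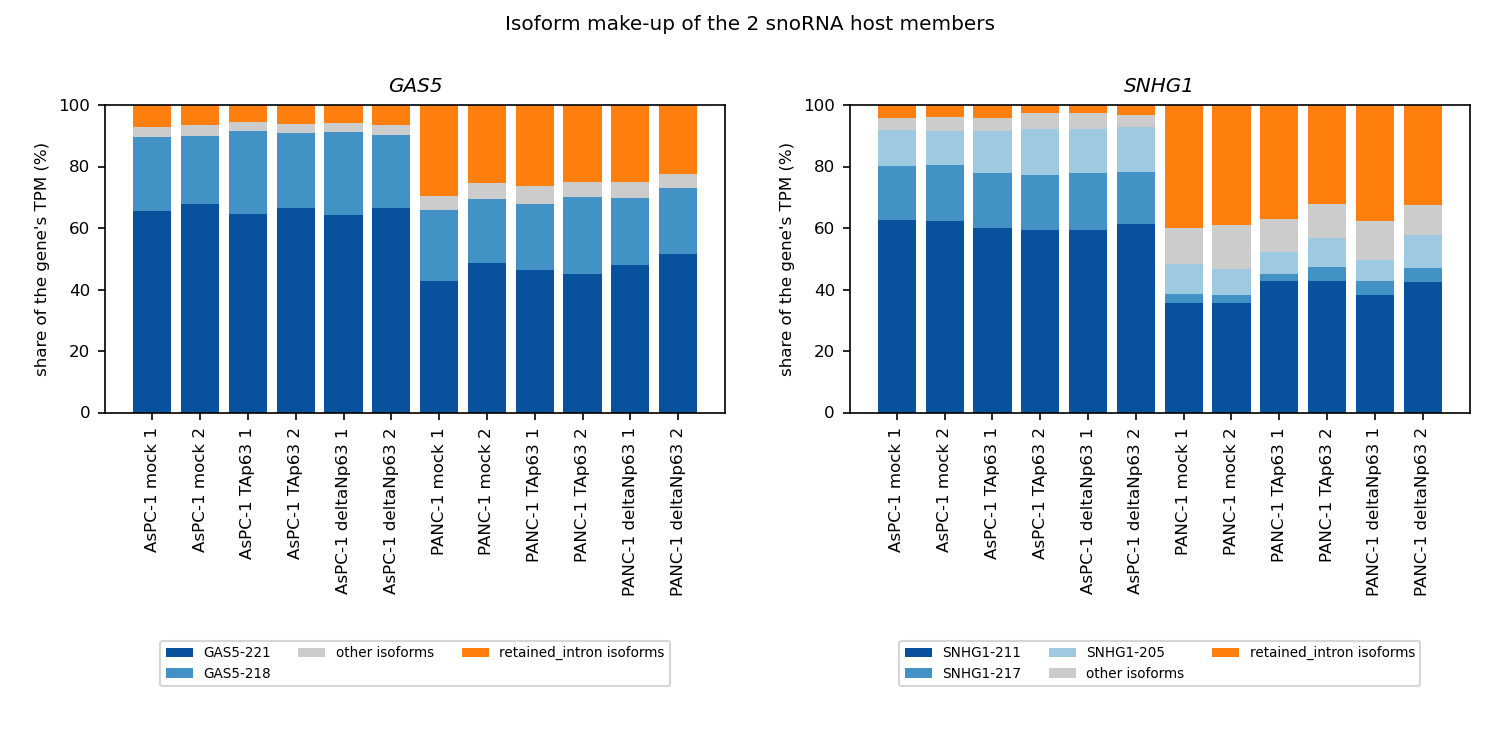
Share of the gene's TPM in percent held by the main isoforms, by all isoforms annotated as retained-intron and by the others, for GAS5 and SNHG1 in each of the 12 libraries. The retained-intron part is 5.68 to 7.26% of GAS5 and 2.60 to 4.26% of SNHG1 in AsPC-1, and 22.4 to 29.5% and 32.2 to 39.8% in PANC-1.

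Summed over all isoforms annotated as retained-intron, 19 of 29 GAS5 rows and 11 of 25 SNHG1 rows, the classes went opposite ways. This class was chosen after the values were seen and is given as a description. Retained-intron isoforms of GAS5 summed to 56.3 ± 6.71 TPM in AsPC-1 and 87.0 ± 9.68 in PANC-1 (SD, n = 6), and the other GAS5 isoforms to 840 ± 146 and 253 ± 21.4. For SNHG1 the retained-intron isoforms summed to 21.1 ± 3.94 and 37.3 ± 4.53 TPM, and the others to 590 ± 58.0 and 64.9 ± 2.78. The other isoforms were thus 3.31 times and 9.10 times as high in AsPC-1, while the retained-intron isoforms were 1.55 and 1.77 times as high in PANC-1. Over whole libraries the retained-intron share was alike, at 5.02 to 5.38% in AsPC-1 and 5.14 to 5.40% in PANC-1. Of 5944 genes with such isoforms, 8.98% had a share higher in PANC-1 with no overlap of the lines and 3.9% a lower one. How reads were divided between isoforms is not given in the sources used here, and its part in these shares was not tested.

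In share, though not always in amount, other snoRNA hosts showed the same direction. Of 8 further hosts with a retained-intron isoform and at least 1 TPM in every library, 7 had a share higher in PANC-1 without overlap and 0 a lower one. SNHG3 went from 34.1% ± 6.93 to 67.8% ± 6.05, SNHG12 from 18.4% ± 1.49 to 35.1% ± 3.15 and SNHG11 from 7.73% ± 1.18 to 21.4% ± 6.55, while SNHG5, SNHG6, SNHG17 and SNHG29 stayed below 7% in both lines. SNHG16 overlapped between the lines. SNHG14 was left out because it was below 1 TPM in AsPC-1.

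**Figure D5:**
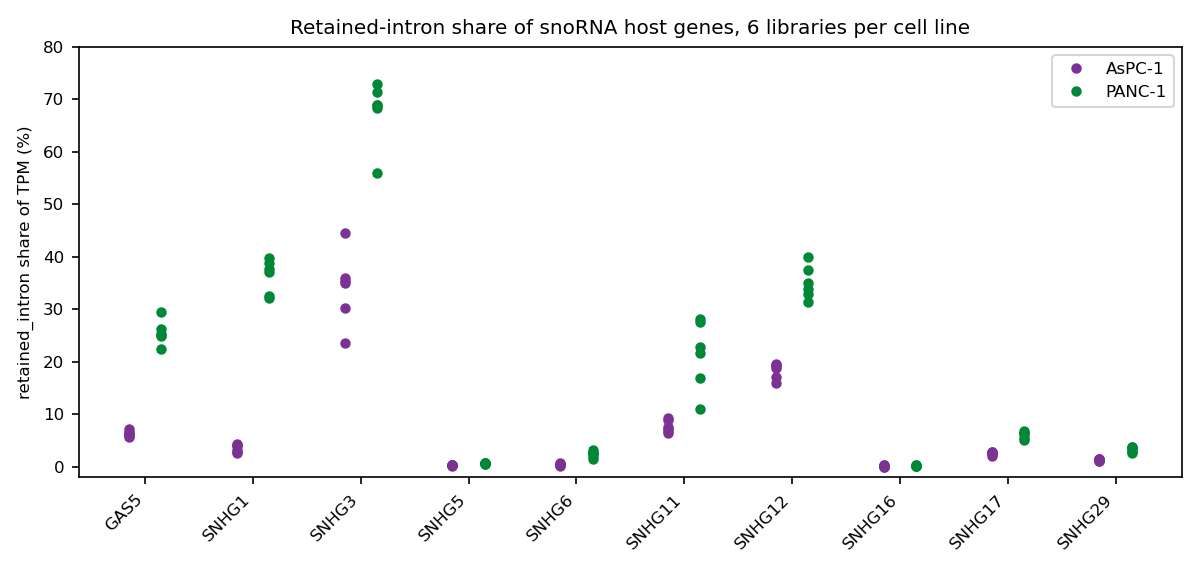
Percent of the gene's TPM on isoforms annotated as retained-intron for GAS5, SNHG1 and 8 other snoRNA host genes; each point is 1 library, 6 per cell line. The lines do not overlap for 9 of the 10 genes, and SNHG16 is near 0 in both.

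At gene level, 16 snoRNA host genes other than GAS5 and SNHG1 had rows out of 24 listed, and 14 of the 16 differed between the mock groups, 6 higher and 8 lower in PANC-1, near the 72.5% of all genes, with a median log2 difference of -0.22 against 0.24 over all genes. SNHG14, among the 6 higher ones, passed the filter through PANC-1 only. The hosts SNHG29, SNHG7 and ZFAS1 were among the lower ones, with differences of -1.65, -1.996 and -1.38. With deltaNp63 in AsPC-1, 1 of the 16 rose and 0 fell: SNHG29 went from 1136 to 1506 TPM (log2 difference 0.41, SE 0.10, limma adjusted p = 0.0453). SNHG5 and ZFAS1 were at 0.43 and 0.51 without passing (adjusted p = 0.0700 and 0.0756). The median of the 16 was 0.08, beside -0.12 over all genes. With TAp63 in AsPC-1, 0 of 16 passed, beside 0.637% of all genes. Of 18 factors of nonsense-mediated decay, 5 were higher and 6 lower in PANC-1 mock than in AsPC-1 mock, where 44.6% and 27.9% of all genes were. With deltaNp63 in AsPC-1 the only one of the 18 that passed was UPF3A, which fell by 0.48. In that comparison 0.637% of all genes rose and 6.51% fell.

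MIR31HG and MIR205HG were low in both lines. MIR31HG (ENSG00000171889, chr9:21380073-21559891, minus strand) spans several interferon genes and holds miR-31 in an intron, and 1 of its 27 GENCODE transcripts, MIR31HG-201, had a row. The AsPC-1 mock libraries had 5.88 and 4.43 TPM, those with TAp63 3.97 and 3.35, and those with deltaNp63 5.17 and 4.23. Levels in PANC-1 were 14.3 and 15.1 in mock, 14.7 and 14.9 with TAp63, and 13.1 and 16.9 with deltaNp63. All PANC-1 libraries were above all AsPC-1 libraries, and in AsPC-1 both TAp63 libraries were below the other 4. PANC-1 mock averaged 2.85 times AsPC-1 mock (log2 difference 1.36, SE 0.16, limma adjusted p = 2.67e-05). TAp63 against mock in AsPC-1 gave -0.39 (SE 0.16), with an unadjusted p of 0.0329 and an adjusted p of 0.285. The 2 neighbours on the same chromosome arm went opposite to MIR31HG: CDKN2A, the gene of the cell cycle inhibitor p16, was at 62.4 ± 6.92 TPM in AsPC-1 mock and listed at 0 in all 6 PANC-1 libraries, and the methylthioadenosine enzyme gene MTAP went from 32.0 ± 1.90 to 5.85 ± 5.27.

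MIR205HG (ENSG00000230937, chr1:209428817-209432848, plus strand) was low in every group, also where p63 was overexpressed, and passed the filter of 1 TPM through PANC-1 libraries only. Mock AsPC-1 cells gave 0.852 and 0.296 TPM, TAp63 cells 0.151 and 0.166, and deltaNp63 cells 0.138 and 0.567. In PANC-1 it stood at 1.74 and 0.280 in mock, 0.530 and 0.834 with TAp63, and 0.914 and 1.28 with deltaNp63. The pairs of mock libraries lay further apart than most differences between groups, and the lines overlapped. With TAp63 the log2 difference from mock was -0.42 in AsPC-1 (95% interval -1.15 to 0.31) and -0.16 in PANC-1 (-0.89 to 0.57). With deltaNp63 it was -0.21 (-0.95 to 0.52) and 0.16 (-0.57 to 0.89). Between the mock groups it was 0.27 (limma adjusted p = 0.469), and without the second PANC-1 mock library 0.82 with an adjusted p of 0.0249. These wide intervals leave room for changes in either direction. LAMB3, the laminin gene nearby, was at 1039 ± 355 TPM in AsPC-1 mock and 1.96 ± 0.297 in PANC-1 mock.

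Among 22 other microRNA hosts, 12 had rows and 8 were tested. MIR4435-2HG rose with deltaNp63 in AsPC-1, from 231 ± 10.3 to 430 ± 146 TPM (log2 difference 0.85, SE 0.18, limma adjusted p = 0.0361). It was the only one of the 8 to pass there, where 0.637% of all genes rose and 6.51% fell. Between the mock groups 3 of the 8 were higher in PANC-1 and 1 lower, a smaller part than the 72.5% of all genes that differed. MIR200CHG, host of the epithelial microRNAs of the miR-200 family, was the lower one, at 2.15 TPM in AsPC-1 mock and listed at 0 in PANC-1 mock, while MIR100HG and MIR503HG were 2.26 and 2.17 higher. MIR200CHG passed the filter of 1 TPM through AsPC-1 only and MIR503HG through PANC-1 only, so the filter partly set their directions.

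PVT1 (ENSG00000249859, chr8:127794526-128187101, plus strand), a long and much-spliced locus beside MYC that is often gained in tumours, was higher in PANC-1. The AsPC-1 mock libraries had 36.4 and 39.0 TPM, those with TAp63 31.7 and 34.0, and those with deltaNp63 45.2 and 33.7. The PANC-1 libraries held 74.1 and 75.9 in mock, 75.1 and 78.2 with TAp63, and 80.6 and 84.7 with deltaNp63. The lines did not overlap, and in PANC-1 both deltaNp63 libraries were above the other 4. PANC-1 mock averaged 1.99 times AsPC-1 mock (log2 difference 0.97, SE 0.12, limma adjusted p = 4.27e-05), and deltaNp63 against mock in PANC-1 gave 0.14 (SE 0.12, adjusted p of 1.0). MYC itself went the other way between the lines, from 158 ± 15.2 TPM in AsPC-1 mock to 104 ± 13.6 in PANC-1 mock (log2 difference -0.59, SE 0.14, limma adjusted p = 0.0028).

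The 20 PVT1 rows divided alike in both lines by where they start. Of these, 10 start in the first-exon cluster at the gene start and held 33.2% ± 3.07 of PVT1 in AsPC-1 and 33.8% ± 1.28 in PANC-1 (SD, n = 6); the other 10 start inside the gene. PVT1-209, the most abundant isoform, held 22.0% ± 4.84 and 18.2% ± 2.05, a difference that did not pass (exact permutation, adjusted p = 0.165). PVT1-212 fell from 8.23% ± 1.16 to 4.60% ± 0.493 (exact permutation, adjusted p = 0.00685) and PVT1-214 rose from 6.31% ± 1.07 to 8.05% ± 1.14 (exact permutation, adjusted p = 0.0463).

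TUG1 (ENSG00000253352, chr22:30969245-30979395, plus strand), which GENCODE v44 types as protein-coding although none of its 4 most abundant isoforms has a defined coding sequence, showed the smallest of the 6 differences that passed between the lines. Mock AsPC-1 cells gave 40.0 and 36.9 TPM, TAp63 cells 38.4 and 36.9, and deltaNp63 cells 42.8 and 32.1. PANC-1 gave 48.9 and 48.6 in mock, 47.2 and 46.9 with TAp63, and 44.2 and 52.0 with deltaNp63. The mock groups did not overlap, and all 6 PANC-1 libraries were above all 6 of AsPC-1. The difference between the mock groups was 0.33 (SE 0.13, limma adjusted p = 0.0403), close to the median of 0.24 over all genes, and 0.16 with an adjusted p of 0.338 once each library was centred on its median. The call was also lost without any one of the 4 mock libraries (limma adjusted p 0.0641 to 0.171). In the construct comparisons within a line it lay between -0.05 and 0.02. TUG1-208 was the only one of its 4 tested isoform shares to pass, at 7.60% ± 1.14 in AsPC-1 and 4.52% ± 1.01 in PANC-1 (exact permutation, adjusted p = 0.0118).

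Across single isoforms the constructs again gave no call. Of 75 tested rows of the 7 genes, 0 passed in any of the 8 construct comparisons in limma, with 4 to 7 rows at an unadjusted p under 0.05 in each and a lowest adjusted p of 0.155. Of all rows, the percentages that passed were 0.0968% for TAp63 and 0.298% for deltaNp63 against mock in AsPC-1, 0.0135% and 0.0194% for the same in PANC-1, 0.0116% and 0.0213% between the constructs (AsPC-1, then PANC-1), and 0 and 0.0735% for the cell-line differences in the TAp63 and the deltaNp63 effect. In the mock comparison 25 of the 75 rows were higher and 11 lower in PANC-1, near the 44.7% of all rows that differed. The groups of 2 libraries did not overlap for 5, 3 and 3 of the 7 genes in AsPC-1 (TAp63 and deltaNp63 against mock, and between constructs), where 46.6%, 52.1% and 29.5% of all genes did not, and for 3, 2 and 5 in PANC-1, where the background was 42.4%, 27.1% and 34%.

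Ordered by level in AsPC-1 mock the genes ran GAS5, SNHG1, TUG1, PVT1, MIR31HG, H19, MIR205HG, and in PANC-1 mock GAS5, SNHG1, PVT1, TUG1, H19, MIR31HG, MIR205HG. TUG1 and PVT1 in AsPC-1, at 38.5 ± 2.18 and 37.7 ± 1.81 TPM, and TUG1 and H19 in PANC-1, at 48.7 ± 0.195 and 42.9 ± 11.998, were neighbours closer than their spread. Expressed as the coefficient of variation over the 6 libraries of a line, TUG1 and SNHG1 varied by 9.49% and 9.40% in AsPC-1 and by 5.37% and 4.73% in PANC-1, GAS5 by 17.0% and 7.51%, and H19 by 48.2% and 19.1%. Each of the 7 had the lower coefficient in PANC-1, a description over libraries that mix the 3 constructs.

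Promoter windows from 250 bases before to 50 after the start were held by the RefSeq table (GRCh38.p14) for 6 of the 7 genes. The E-box CACGTG, the letters bound by MYC and related factors, was found on either strand in that of TUG1 alone, and in 7.26% of all 35116 windows. The p53 family decamer, of which a full site has a pair, was found in 0 of the 6 and in 6.63% of all windows, and the full site in 0 of the 6 and 0.0285% of all. A match describes letters only, and its absence says only that these letters are not in this window.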

How the data were processed

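Poly(A) RNA libraries were made with a stranded mRNA kit, per the labels' protocols. The authors deposited one table of TPM values with 153329 transcript rows, each of the 12 columns summing to 1000000. Quantifier, genome build and annotation are not given in the sources used here. Columns were matched to samples by title. TPM keeps no read depth, so no counting interval was computed.

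Rows were paired with GENCODE v44 genes (139819 rows, 91.2%) and summed per gene, so levels across genes are per length. Genes that reached 1 TPM in 2 or more libraries were tested on log2(TPM + 1) with limma 3.58.1 in R 4.3.3, with all 6 groups in one fit (6 residual degrees of freedom), a trended prior and Benjamini-Hochberg adjustment over all genes. On such values a fold is understated for low genes. Transcript rows were fitted likewise. Isoform shares of at least 5% were compared by exact permutation. Tables were handled in Python 3.11.15. The fit was checked on simulated data. Members and gene lists were chosen with earlier results of these data known. Retained-intron sums, isoform ratios and PVT1 start classes were chosen after seeing values. The text names all members, their most abundant or called isoforms, and up to 4 genes per list by number of calls and then level, with all neighbours of members that passed considered; SNHG5, ZFAS1, SNHG29, UPF3A, MIR4435-2HG and the hosts with retained-intron shares outside that rule were named after their values were seen. Alternatives changed the pseudocount, filter, scaling, prior, libraries in the fit and block.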

Additional observations from a re-analysis of the deposited data

How the results depend on the processing

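Of 1356 gene-level values computed under other settings, 57 had the other sign, spread over 27 gene-by-comparison pairs, none of which was a call, and no called value reversed. For deltaNp63 against mock in AsPC-1, the number of the 7 genes that passed went from 0 to 1 with only genes of a mean of at least 5 TPM (GAS5, limma adjusted p = 0.0378) and to 1 with a replicate block (GAS5, adjusted p = 0.0207), and ranged from 0 to 2 when single libraries were left out. Between TAp63 and deltaNp63 in AsPC-1 the count without single libraries ranged from 0 to 1. Both upper ends came without the second AsPC-1 deltaNp63 library: GAS5 was then 0.58, SNHG1 0.26 and, against TAp63, PVT1 -0.45 (adjusted p = 0.0262). The cause was not tested. The other 6 construct comparisons stayed at 0 in every setting, and the isoform counts at 0 in all 8. In the mock comparison 5 to 6 genes and 25 to 40 isoform rows passed without single libraries. TUG1 lost its call in 12 of 21 other settings, among them quantile normalization (0.24, adjusted p = 0.125), median centring (0.16, adjusted p = 0.338), no filter (adjusted p = 0.0716), no trended prior (adjusted p = 0.0524) and each mock library left out (adjusted p 0.0641 to 0.171). H19 (4.10 to 5.18), GAS5 (-1.33 to -1.10), SNHG1 (-2.66 to -2.45), MIR31HG (1.16 to 1.53) and PVT1 (0.80 to 1.02) kept theirs in all of these 21; requiring also a log2 difference of at least 1 left 4 genes. Leaving out a library leaves its group with 1, assumed to vary like the others.

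The labels do not say whether replicate numbers pair the samples. Deviations from the group means of same-numbered libraries correlated between -0.094 and 0.293 over genes, highest for TAp63 and deltaNp63 in AsPC-1. For GAS5 and SNHG1, replicate 1 was above replicate 2 in every AsPC-1 group. These values do not settle whether the samples pair. With the replicate block, GAS5 is the call named above and no other gene-level call of the 7 genes changed, TUG1 included (0.33, limma adjusted p = 0.0239); all 8 isoform-share differences keep their sign without the mock libraries. The median log2 difference of all genes between the mock groups fell from 0.24 to 0.0821 with quantile normalization and 0.0692 with median centring.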

Other observations

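Of 30 other long noncoding RNAs of cancer, 18 had rows and 12 were tested, and 7 were higher and 3 lower in PANC-1 mock than in AsPC-1 mock, near the 72.5% of all genes that differed there, with a median log2 difference of 1.01, against 0.24 over all genes. Several of the 12 passed the filter of 1 TPM only through the line in which they were higher. The filter thus partly set these counts and this median. DUXAP8, an RNA from a pseudogene locus, was at 4.37 TPM in AsPC-1 mock and 94.0 in PANC-1 mock (log2 difference 4.15, SE 0.11), and LINC00511 and OIP5-AS1 were 1.11 and 1.46 higher. None of the 12 passed with TAp63 or deltaNp63 in AsPC-1 (limma, lowest adjusted p 0.197 and 0.0523). There 0.637% and 7.14% of all genes passed, so a count of 0 is near the background. Of 12 long noncoding RNAs known to respond to p53, the relative of p63, LINC-PINT and TP53TG1 were tested. Neither passed with a construct in AsPC-1, against the same background. Both were higher in PANC-1 mock, by 0.70 and 0.56, as were 44.6% of all genes.

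Paraspeckles are nuclear bodies built on NEAT1, which was not analysed here, and 25 of 27 genes of their proteins were tested. With deltaNp63 in AsPC-1, 3 fell and 0 rose: HNRNPUL1 by 0.48, CPSF6 by 0.40 and DAZAP1 by 0.37 on the log2 scale. The median of the 25 was -0.16, beside -0.12 over all genes, and 6.51% of all genes fell in that comparison. With TAp63 in AsPC-1, 0 of 25 passed, beside 0.637% of all genes.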
